A study of Arabidopsis thaliana with 30 samples.

Results

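The genes described here are those whose transcripts were at least 1.5 lower in ada2b than in Col-0 on the mean log2(value + 1) scale while not lower in gcn5. They number 222 of the 21868 genes that passed the filter on low values, a minimum value of 10 in 3 or more of the 30 libraries. The members were selected on measured values, and 221 of them pass the same filter without the eaf6 libraries and 219 without those of Col-0. For each mutant, d is the mean log2(value + 1) of its 3 libraries minus that of the 3 Col-0 libraries. A member had d of -1.5 or below in ada2b, d of -0.3 or above in gcn5, and d below 0.5 in at least 1 of ada2a, spc, ing1 and sdrl. Every value in those 6 mutants against Col-0 is therefore a description of the choice, given with no test.

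Messenger RNA was sequenced from whole Arabidopsis thaliana seedlings, 12 days old, with 3 libraries for each of 10 genotypes. The groups were homozygous mutants of ada2b, gcn5, ada2a, spc, ing1, sdrl and eaf6, the double mutants ada2a spc (written ada2aspc) and spc ing1 (written spcing1), and the wild type Col-0. The seedlings grew untreated on Murashige and Skoog plates in a 16 h light and 8 h dark cycle at 22°C. Neither allele numbers nor separate plantings of replicate libraries are given by the labels. A p-value here thus reflects only how far the deposited libraries of a genotype scatter, which can be technical. A mean is given with its SD over 3 libraries, and a log2 fold change with its standard error.

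GCN5 is a histone acetyltransferase, an enzyme that adds acetyl groups to histone tails, and it works inside multi-subunit complexes. ADA2 proteins are adaptors that bind GCN5 and help it act on nucleosomes. Arabidopsis has a pair of them, ADA2A and ADA2B, and ADA2B belongs to the SAGA-type complex that is conserved between plants and yeast. EAF6 is a small subunit known from acetyltransferase complexes, and ING1 is a plant homeodomain protein of a family that reads methylated histones. Loss of ADA2B and loss of GCN5 are both known to give small plants with many transcripts reduced.

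Of the 21868 genes, 1899 were lower in ada2b by the same threshold (8.68%), and 1628 of those were also below -0.3 in gcn5. The remaining 271 were not, and 49 of them were left out because they stood 0.5 or more above Col-0 in all 4 of ada2a, spc, ing1 and sdrl. The transcripts of both mutated genes were present in their mutants, at the lowest mean of the 10 genotypes. ADA2B (AT4G16420, TAIR10.1 chromosome 4, 9262621 to 9266157, minus strand) averaged 1084 ± 117 in ada2b and 1500 ± 56.4 in Col-0, but it was also below Col-0 in most other mutants, down to 1245 ± 1.22 in spc. GCN5 (HAG1, AT3G54610, chromosome 3, 20213406 to 20217653, plus strand) averaged 304.7 ± 48.7 in gcn5 and 619.5 ± 35.9 in Col-0, with 483.2 ± 54.8 in spcing1 as the next lowest. Both values cover the whole gene, so the transcript part that remained is not resolved. All values are a normalised signal per gene, with column totals between 30914000 and 41548748, and below they are called values.

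**Figure D1:**
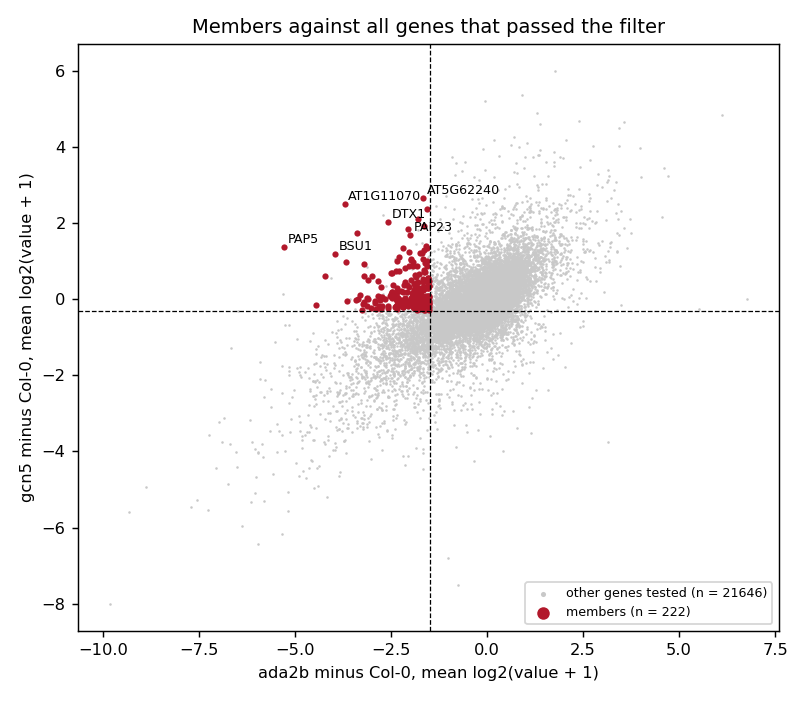
Difference between ada2b and Col-0 (horizontal axis) and between gcn5 and Col-0 (vertical axis) for every gene that passed the filter, each as a difference of mean log2(value + 1), with the 222 members in red and the thresholds of the rule at -1.5 and -0.3 as dashed lines. The members fill the upper left corner by construction, and PAP5 lies farthest left among them at -5.29.

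Many members were low to begin with. The median Col-0 value was 21.5 over the members and 543 over all genes tested, 103 members averaged below 20 in Col-0 and 17 averaged at least 1000. In 19 members all 3 ada2b libraries were listed at 0 (below 0.01), and in 85 at least 1 was. For these the size of d depends on the pseudocount of 1, and no fold is given. In 186 members every ada2b library was below every Col-0 library, which was so for 29.9% of all genes. In 192 members every ada2b library was below every gcn5 library, against 24.8% of all genes. In gcn5, d was above 0 in 130 members, at or below 0 in 92 and at least 1 in 24.

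Of the 222 members 91 carry a gene symbol, and 6 are genes of microRNAs, short RNAs that direct the cutting or silencing of matching messengers. They are shown because their mature sequences name what each precursor makes. The sequencing measured the precursor transcripts and not the mature RNAs. The sequences are from RefSeq (TAIR10.1), 5′ to 3′, with the seed, bases 2 to 8, in capitals, and no pair of those printed shares a seed.
miR171c-3p, chr1:22930095-22930115, minus strand: uUGAGCCGugccaauaucacg
miR172b-3p, chr5:1188211-1188231, minus strand: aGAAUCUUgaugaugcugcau
miR396a-5p, chr2:4142443-4142463, minus strand: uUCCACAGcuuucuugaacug
miR399c-3p, chr5:24962568-24962588, plus strand: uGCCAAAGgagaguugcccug
miR841a-5p, chr4:7885393-7885413, minus strand: uACGAGCCacuugaaacugaa
miR850, chr4:7845756-7845777, plus strand: uAAGAUCCggacuacaacaaag

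The miR171 family targets GRAS genes of the HAM group, the miR172 family targets AP2-type repressors of flowering, miR396 targets growth-regulating factors, and miR399 targets PHO2, which restrains phosphate uptake. MIR172b had values of 0 in all 3 in ada2b, 45.9, 40.96 and 21.3 in gcn5 and 3.56, 8.87 and 24.96 in Col-0. MIR399c had 0, 5.72 and 0 in ada2b, 26.2, 38.4 and 3.05 in gcn5 and 17.9, 11.1 and 17.9 in Col-0. For MIR172b every ada2b library was below all libraries of gcn5 and Col-0. For MIR399c the same held against Col-0, but the third gcn5 library was below 1 ada2b library. MIR171c and MIR396a were low everywhere, with 0.569, 1.21 and 8.34 and 1.67, 0 and 0.889 in ada2b, 14.9, 13.5 and 20.9 and 7.45, 9.31 and 5.58 in gcn5, and 9.35, 11.97 and 10.5 and 9.5, 4.43 and 3.22 in Col-0. MIR850 was the most abundant, at 112, 107 and 80.9 in ada2b, 345, 351 and 415 in gcn5 and 342, 458 and 458 in Col-0. MIR850 lies inside the longer non-coding gene AT4G13495 on the same strand, which is itself a member with d of -1.89 in ada2b, so how reads were divided between them depends on the authors' counting. MIR841a has a near-identical copy, MIR841b, and its value is uncertain for the same reason. In eaf6, ada2aspc and spcing1 none of the 6 passed the test against Col-0 (limma), where 51% of all genes passed in eaf6 in either direction, 44.4% in ada2aspc and 44.9% in spcing1.

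Phosphate supply was the role group with the highest median d in gcn5. The 8 role groups used here were put together after the values were seen, from symbols and RefSeq products, and they hold 89 members. Plants short of phosphate release it from organic compounds with purple acid phosphatases, import it with PHT1 carriers, replace membrane phospholipids with galactolipids, and limit the response through SPX-domain proteins. The 11 phosphate members had a median d of -2.01 in ada2b and 0.92 in gcn5, and 9 of the 11 were above 0 in gcn5, against a median of 0.04 over all members there. They are the phosphatases PAP5, PAP7, PAP16, PAP23 and PAP24, the carrier PHT1;8, the glycerol-3-phosphate permease G3Pp3, SPX3, the galactolipid synthase MGDC (also called MGD3), AT5G03545, which RefSeq describes as expressed in phosphate starvation, and MIR399c.

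The regulator PHR1 is known to activate phosphate starvation genes through the motif GNATATNC, which reads the same on both strands and was added to the search after the members were seen. It was in the window from 250 bases before to 50 bases after the start of 30 of 222 members (13.5%), of 6.76% of the genes lower in both ada2b and gcn5, and of 6.26% of all genes tested. Among the phosphate members 7 of 11 held it. The 250 bases before the start are printed for 4 of them, 5′ to 3′ on the gene's strand, from RefSeq TAIR10.1, with each match in capitals. In PAP16 the match does not lie wholly within the bases before the start.
SPX3, chr2:18606160-18606409, plus strand: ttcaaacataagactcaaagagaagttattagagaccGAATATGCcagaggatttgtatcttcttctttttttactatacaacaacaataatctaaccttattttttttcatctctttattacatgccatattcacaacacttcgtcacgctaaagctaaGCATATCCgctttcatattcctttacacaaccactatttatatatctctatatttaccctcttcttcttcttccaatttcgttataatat
PAP5, chr1:19716152-19716401, plus strand: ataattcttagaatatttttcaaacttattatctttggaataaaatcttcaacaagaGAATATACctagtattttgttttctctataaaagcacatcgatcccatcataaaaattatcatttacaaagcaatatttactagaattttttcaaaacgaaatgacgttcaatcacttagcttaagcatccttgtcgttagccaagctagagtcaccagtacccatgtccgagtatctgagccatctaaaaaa
AT5G03545, chr5:894332-894581, plus strand: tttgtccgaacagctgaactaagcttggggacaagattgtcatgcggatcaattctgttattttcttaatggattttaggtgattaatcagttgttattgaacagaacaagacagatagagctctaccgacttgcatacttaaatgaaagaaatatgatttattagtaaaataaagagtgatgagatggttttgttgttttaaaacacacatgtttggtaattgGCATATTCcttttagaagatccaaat
MIR399c, chr5:24962235-24962484, plus strand: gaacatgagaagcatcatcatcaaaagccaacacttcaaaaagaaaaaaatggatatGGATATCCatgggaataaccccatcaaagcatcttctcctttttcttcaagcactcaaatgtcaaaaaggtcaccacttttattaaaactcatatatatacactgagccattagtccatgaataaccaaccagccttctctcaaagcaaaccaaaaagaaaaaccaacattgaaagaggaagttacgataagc

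SPX3 carries the match at 2 places, beginning at bases -213 and -90 counted back from the start, PAP5 and MIR399c carry it at -193, and AT5G03545 carries it at -26. A match is a description of letters and does not show that a factor binds there.

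PAP5 had the lowest d of all members in ada2b. Its values were 0, 0 and 0.92 in ada2b, 232, 142 and 59.2 in gcn5 and 46.8, 26.9 and 84.8 in Col-0. All ada2b libraries were at or near 0, and 2 of 3 gcn5 libraries were above every Col-0 library. PAP16 showed 6.29, 9.11 and 4.35 in ada2b, 148, 97.8 and 142 in gcn5 and 72.3, 47.5 and 86.1 in Col-0, with no overlap among the 3 genotypes. PAP24 showed 23.2, 65.1 and 42.9 in ada2b, 362, 442 and 188 in gcn5 and 133, 88.2 and 199.5 in Col-0, and PAP23 3.21, 2.95 and 1.74 in ada2b, 75.9, 76.6 and 15.4 in gcn5 and 18.9, 7.87 and 15.8 in Col-0. For both, the third gcn5 library overlapped Col-0 and the ada2b libraries overlapped neither. PAP7 was at 119, 128 and 172 in ada2b, 405, 465 and 359 in gcn5 and 453, 373 and 417 in Col-0, so gcn5 overlapped Col-0. Of the 22 purple acid phosphatases tested, 5 are members. PAP25 was low in ada2b (d of -3.77) but at -0.45 in gcn5, below the threshold.

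SPX3 (AT2G45130, chromosome 2, 18606410 to 18607853, plus strand) had 151, 151 and 54.1 in ada2b, 1345, 1208 and 380.2 in gcn5 and 500.2, 154 and 442 in Col-0. The second Col-0 library was about level with the higher ada2b libraries, and 1 gcn5 library overlapped Col-0. MGDC (AT2G11810, chromosome 2, 4743162 to 4746813, plus strand) had 328, 478 and 96.4 in ada2b, 3011, 2527 and 1098 in gcn5 and 1103, 588 and 1438 in Col-0. Its groups overlapped only between gcn5 and Col-0. AT5G03545 had 1278, 1517 and 658 in ada2b, 5613, 5614 and 2662 in gcn5 and 4604, 3508 and 4545 in Col-0, again with ada2b apart.

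Single libraries moved together in this group. The third gcn5 library was the lowest of its 3 in 10 of the 11 genes, and the second Col-0 library in 10 of 11. The first sdrl library was the lowest of its 3 in all 11, and the third ada2a library the highest in all 11. Over all 222 members these counts were 104, 94, 119 and 104. The first sdrl library was also the lowest in 15 of the 16 defence members. The median d in gcn5 was 1.01 without that gcn5 library and 0.68 without that Col-0 library, where 6 of 11 were above 0. In sdrl the median was -0.29 with all libraries and 0.49 without its first library. In ada2a it was -0.09 with all libraries, 0.33 without the first, 0.12 without the second and -0.36 without the third. The median in ada2b lay between -2.34 and -1.76 with any 1 of the ada2b, gcn5 or Col-0 libraries left out.

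**Figure D2:**
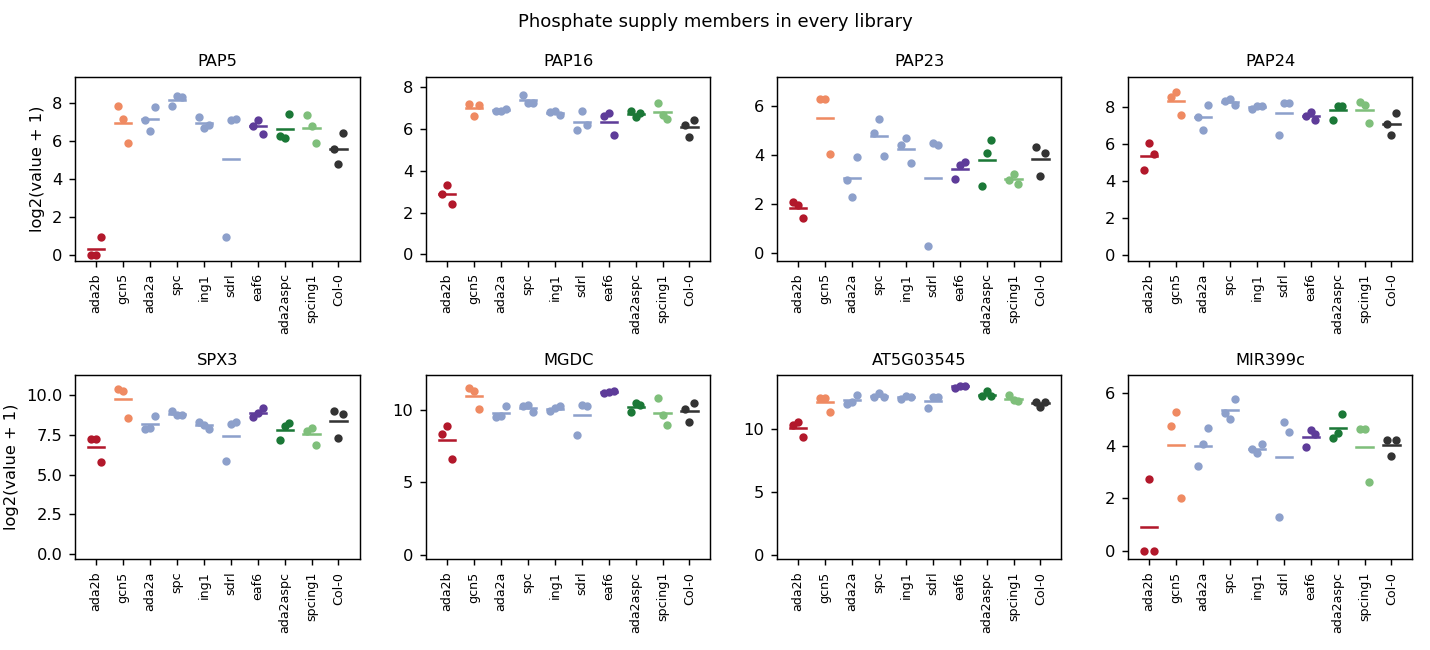
Values of 8 phosphate supply members in each of 30 libraries, as log2(value + 1) on the vertical axis, by genotype on the horizontal axis, with a point per library and a bar at the mean of 3. The ada2b points lie below those of all other genotypes in PAP16, PAP24 and AT5G03545, and the first sdrl library is the lowest of its 3 in all 8.

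A list of known phosphate starvation genes had a median above Col-0 in ada2b. Of the 15 genes tested from it, SPX3 and MGDC are members, and 3 of 15 had d of -1.5 or below in ada2b. Over the 15 the median d was 0.11 in ada2b and 0.82 in gcn5, and 12 were above 0.3 in gcn5. In eaf6 against Col-0, 11 of the 15 rose and 0 fell (limma, adjusted p below 0.05), where 25.2% of all genes rose and 25.9% fell. In ada2aspc 2 rose and 0 fell, where 21.7% of all genes rose and 22.8% fell. In spcing1 0 rose and 1 fell, where 20.9% of all genes rose and 23.9% fell. PAP17, an abundant phosphatase of the response and no member, averaged 4670 in ada2b, 6907 in gcn5 and 3105 in Col-0.

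Among the 11 phosphate members, 3 rose in eaf6 against Col-0, a share near the 25.2% of all genes, and 0 fell, where 25.9% of all genes fell. AT5G03545 reached 9840, 11040 and 10930 in eaf6, above every Col-0 library (log2 fold change 1.34 ± 0.26, adjusted p = 7e-05). PAP7 was at 638, 745 and 811 in eaf6 (log2 fold change 0.82 ± 0.17, adjusted p = 0.000167). MGDC was at 2339, 2490 and 2615 in eaf6 (log2 fold change 1.34 ± 0.49, adjusted p = 0.0224), a call that was lost without the second Col-0 library (adjusted p = 0.139) or the third eaf6 library (adjusted p = 0.0561). PAP5 (log2 fold change 1.18 ± 0.89, adjusted p = 0.279) and SPX3 (log2 fold change 0.54 ± 0.51, adjusted p = 0.398) did not pass.

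Hormone genes among the members included the makers of cytokinins, which promote cell division in shoots. CYP735A1 makes trans-zeatin precursors, and LOG3 and LOG9 belong to the enzymes that release active cytokinins. CYP735A1 had 0, 0.43 and 10.2 in ada2b, 14.9, 20.96 and 10.3 in gcn5 and 21.8, 14.2 and 7.52 in Col-0, so ada2b overlapped Col-0 but not gcn5. LOG9 had 1.71, 0 and 0 in ada2b, 5.55, 6.99 and 7.45 in gcn5 and 3.69, 5.48 and 8.36 in Col-0. LOG3 had 9.12, 2.58 and 4.42 in ada2b, 23.1, 40.8 and 29.4 in gcn5 and 31.2, 21.8 and 9.69 in Col-0. In LOG3 and LOG9 the ada2b libraries lay below every library of gcn5 and Col-0. In eaf6, LOG9 (log2 fold change 1.53 ± 0.61, adjusted p = 0.0381) and CYP735A1 (log2 fold change 1.504 ± 0.63, adjusted p = 0.0454) passed as higher, but both lost the call when any 1 eaf6 library was left out. Of 19 genes of cytokinin response and breakdown none is a member, and their median d was -1.05 in ada2b and -0.30 in gcn5.

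Other growth signals were the brassinosteroid phosphatase BSU1, the auxin genes IAA32, LBD18 and AT1G48660, a GH3 family member by its RefSeq product, the peptide genes CLE1 and CLE22, and the gibberellin-regulated AT3G10185. BSU1 was listed at 0 in all ada2b libraries, and had 36.4, 33.3 and 33.6 in gcn5 and 15.02, 17.4 and 11.7 in Col-0, so gcn5 was above Col-0 without overlap. It rose in eaf6 (53.3, 73.4 and 61.7, log2 fold change 2.03 ± 0.40, adjusted p = 0.000109) and in spcing1 (45.2, 51.2 and 45.9, log2 fold change 1.64 ± 0.40, adjusted p = 0.0013). AT1G48660 was also at 0 in ada2b, with 31.1, 10.7 and 19.7 in gcn5 and 21.6, 30.3 and 13.8 in Col-0. IAA32 was the member closest to the gcn5 threshold, at -0.29, and the only member among 30 Aux/IAA genes tested. The 7 members of the group had a median d of -1.67 in ada2b and 0.02 in gcn5, and the gcn5 median was -0.155 without gcn5 replicate 1 and -0.12 without Col-0 replicate 1. Of the 7, 2 rose in eaf6 against Col-0 and 0 fell, where 25.2% of all genes rose and 25.9% fell.

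Genes of epidermal patterning, organ shape and flowering made up 11 members, with a median d of -1.86 in ada2b and 0.29 in gcn5. BASL marks the polar side of stomatal precursor cells, and it had 21.4, 16.3 and 27.1 in ada2b, 55.9, 41.7 and 77.5 in gcn5 and 88.6, 61.4 and 56 in Col-0. ETC1, a small MYB protein that restrains trichome formation, had 4.42, 8.04 and 11.8 in ada2b, 40.1, 31.97 and 45.6 in gcn5 and 27.9, 56.3 and 39 in Col-0. TFL1, which delays flowering and keeps the shoot tip growing, had 11.4, 4.65 and 9.89 in ada2b, 23.8, 57.2 and 47.9 in gcn5 and 28.04, 28.6 and 44.03 in Col-0. In all of these the ada2b libraries were below every library of gcn5 and Col-0. BLH5, a BEL1-like homeodomain gene, had 1.56, 3.14 and 0 in ada2b, 15.9, 9.02 and 19.3 in gcn5 and 16.9, 12.2 and 23.1 in Col-0. NGA4, of the NGATHA family that shapes leaf and carpel margins, had 0, 4.9 and 0 in ada2b, 18.01, 4.2 and 6.34 in gcn5 and 3.62, 14 and 10.5 in Col-0, with overlap between ada2b and both. NGA4 was the only member among 9 leaf growth regulators tested. Of the 11 members, 1 rose and 1 fell in eaf6 against Col-0, where 25.2% of all genes rose and 25.9% fell.

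Markers of cell types also differed between these genotypes. The trichome sum of 9 genes, with ETC1 among them, was 2962 to 3330 in ada2b, 3497 to 3964 in gcn5, 3371 to 4155 in eaf6 and 2757 to 3246 in Col-0. The ada2b and Col-0 sums overlapped, and the list's median d in ada2b was 0.155, whereas ETC1 was at -2.24. Over 11 stomatal lineage genes, BASL among them, the summed value was 2193 to 2703 in ada2b, 3230 to 3392 in gcn5, 4097 to 4493 in eaf6 and 4234 to 4393 in Col-0. Over 10 root hair genes it was 9507 to 12830 in ada2b, 8600 to 11330 in gcn5, 5964 to 7572 in eaf6 and 4136 to 6086 in Col-0. The sum of 8 shoot meristem genes was 1612 to 1834 in ada2b, 2308 to 2477 in gcn5, 3475 to 3620 in eaf6 and 3065 to 3437 in Col-0. For 10 phloem genes it was 7166 to 8076 in ada2b, 9193 to 10190 in gcn5, 12180 to 13220 in eaf6 and 13470 to 14130 in Col-0, and for 10 genes of the root meristem 1438 to 1825 in ada2b, 2431 to 2561 in gcn5, 2367 to 2566 in eaf6 and 2409 to 2489 in Col-0. The endodermis sum was 5450 to 7012 in ada2b, 5044 to 5720 in gcn5, 4456 to 4668 in eaf6 and 3894 to 5258 in Col-0, and that of 6 flower and pollen genes was 173.4 to 307.6 in ada2b, 227.8 to 252.1 in gcn5, 919 to 1225 in eaf6 and 481.5 to 554.8 in Col-0. The 2 root cap genes summed to 63.1 to 112.8 in ada2b, 75.2 to 103.3 in gcn5, 80.01 to 110.6 in eaf6 and 18.6 to 36.82 in Col-0. The 5 seed genes summed to 48.77 to 227.2 in ada2b, 83.39 to 91.27 in gcn5, 115.3 to 183.9 in eaf6 and 38.64 to 73.28 in Col-0, and 2 of them were listed at 0 in ada2b, the only such markers in these 4 genotypes. In whole seedlings, fewer cells of a type and less RNA per cell cannot be told apart, and the part of cell composition in the members' values was not tested.

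Several of the most abundant members are defence genes. The group numbers 16, with a median d of -1.99 in ada2b and -0.09 in gcn5, and 6 were above 0 in gcn5. These gcn5 values rest on single libraries: the median was 0.15 with 11 above 0 without gcn5 replicate 3, and 0.27 with 12 above 0 without Col-0 replicate 3. ECS1, the member with the highest Col-0 value per kilobase of exon, had 4316, 7180 and 2935 in ada2b, 18720, 22850 and 14450 in gcn5 and 17630, 17470 and 22700 in Col-0. PCC1, which is induced by pathogens and the clock, had 361, 647 and 95.3 in ada2b, 1968, 2284 and 1573 in gcn5 and 1942, 1565 and 2423 in Col-0, and it has a near-identical copy, AT3G22235, that missed the rule narrowly. ACD6, an ankyrin protein that promotes salicylic acid signalling, had 1076, 1848 and 584 in ada2b, 6130, 5821 and 3333 in gcn5 and 2958, 3366 and 5595 in Col-0. In these the third ada2b library was the lowest, and no ada2b library reached gcn5 or Col-0. HCHIB, a basic chitinase (chromosome 3, 3962136 to 3963984, minus strand), was tighter, with 269, 296 and 292 in ada2b, 1355, 1462 and 1014 in gcn5 and 1483, 1541 and 1311 in Col-0. Of the 16 defence members, 7 rose and 1 fell in eaf6 against Col-0, where 25.2% of all genes rose and 25.9% fell.

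Small cysteine-rich peptides recurred in this group. The word defensin or knottin, looked for after the members were seen, was in the RefSeq product of 6 members (2.7%) and of 0.142% of all genes. The knottin gene AT2G43535 had 332, 410.3 and 263 in ada2b, 2217, 2359 and 1327 in gcn5, 5905, 6103 and 7043 in eaf6 and 1709, 1436 and 1920 in Col-0, so eaf6 was above Col-0 by more than any spread between libraries (log2 fold change 1.92 ± 0.18, adjusted p = 6.43e-10). The defensin-like gene AT4G22230 had 6.65, 14.2 and 15.3 in ada2b, 33.4, 48.7 and 46.2 in gcn5, 177, 208 and 256 in eaf6 and 52.7, 42.7 and 44.3 in Col-0 (log2 fold change 2.17 ± 0.34, adjusted p = 3.73e-06). PDF1.2c, a jasmonate-responsive defensin, had 7.7, 8.62 and 13.6 in ada2b, 56.7, 67.05 and 70.97 in gcn5 and a wide 20, 64.5 and 114 in Col-0, and its d was also low in ada2a (-3.46) and ing1 (-3.04). No gene of the salicylic acid and immunity list (19 tested) or the jasmonate list (22 tested) is a member. In eaf6 14 of the 19 rose with 0 lower, and 15 of the 22 rose with 1 lower, where 25.2% of all genes rose and 25.9% fell.

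Transporters made up 18 members, with a median d of -1.85 in ada2b and 0.03 in gcn5, where it was -0.17 without gcn5 replicate 1, -0.03 without gcn5 replicate 2 and -0.04 without Col-0 replicate 2. The word transporter or efflux, or the letters ABC, stood in the product of 15 members (6.76%). It stood in that of 4.12% of the genes lower in both ada2b and gcn5, and of 2.29% of all genes. The transporter members include those named next. These are the ABC proteins ABCA5, ABCA6, ABCB5, ABCG5 and ABCG8, the MATE-type exporters DTX1, AT1G15150 and AT5G38030, the anion channel SLAH2, the organic cation carrier OCT1, the plastid sugar phosphate carrier GPT2, and the zinc carriers ZIP7 and ZIP9. DTX1 had 26.8, 31.5 and 0 in ada2b, 226, 251 and 222 in gcn5 and 66.8, 36.6 and 74.5 in Col-0, and gcn5 was above Col-0 without overlap. OCT1 had 6.82, 0.483 and 0.808 in ada2b, 107, 90.3 and 32.7 in gcn5 and 57.7, 19.1 and 36.9 in Col-0. AT5G38030 had 129, 135 and 134 in ada2b, 494, 505 and 396 in gcn5 and 541, 420.0 and 582 in Col-0. Each was lower in every ada2b library than in any library of the other two. ABCA5 and ABCA6 are neighbours on chromosome 3, 1228 bases apart on the same strand, and are 1 of 3 pairs of members that lie next to each other.

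In eaf6, 11 of the 18 transporter members rose against Col-0 and 0 fell, where 25.2% of all genes rose and 25.9% fell. Of the 11, 6 kept the call under every alternative. ABCG5, a half-size ABC transporter, had 1540, 1520 and 1419 in eaf6 and 795, 693 and 796 in Col-0 (log2 fold change 0.97 ± 0.12, adjusted p = 6.8e-08). SLAH2, known for nitrate transport, had 131, 216 and 234 in eaf6 and 60.01, 54.9 and 76.7 in Col-0 (log2 fold change 1.56 ± 0.25, adjusted p = 7.68e-06). AT5G38030 had 1288, 1300 and 1316 in eaf6 (log2 fold change 1.35 ± 0.14, adjusted p = 2.21e-09). OCT1 passed as well (log2 fold change 1.55 ± 0.60, adjusted p = 0.0319), but not without the second Col-0 library (adjusted p = 0.164), nor without Col-0 replicate 3, eaf6 replicate 2 or eaf6 replicate 3. ZIP7 was lower in ada2aspc (113, 132 and 70.2) than in Col-0 (294, 168 and 187, log2 fold change -1.03 ± 0.24, adjusted p = 0.000896).

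Enzymes of specialised metabolism numbered 15, with a median d of -1.96 in ada2b and 0.09 in gcn5. The cytochrome P450 genes CYP76C6, CYP71B37, CYP76G1 and CYP78A8, the oxidosqualene cyclases THAS1 and LAS1, the acyltransferase AACT1, the glucosidase BGLU7 and the dehydrogenase-like SDR4 are among them. CYP76C6 (chromosome 1, 12220858 to 12224108, minus strand) had 17.3, 14.2 and 23.5 in ada2b, 283, 249 and 173 in gcn5, 511, 602 and 644 in eaf6 and 118, 170.3 and 208 in Col-0. THAS1, which makes the root triterpene thalianol, had 619.8, 605 and 628 in ada2b, 2694, 2627 and 1629 in gcn5, 4106, 4061 and 4211 in eaf6 and 1695, 1834 and 1793 in Col-0. SDR4 had 427, 285 and 383 in ada2b, 1390, 1314 and 784 in gcn5, 2866, 2863 and 3087 in eaf6 and 1132, 1074 and 985 in Col-0. In each, all eaf6 libraries were above all Col-0 libraries and all ada2b libraries below them. Of the 15, 10 rose in eaf6 and 0 fell, where 25.2% of all genes rose and 25.9% fell, and 6 of the 10 kept the call under every alternative. The log2 fold changes in eaf6 against Col-0 by limma were 1.85 ± 0.22, adjusted p = 5.59e-08 for CYP76C6, 1.22 ± 0.18, adjusted p = 2.72e-06 for THAS1 and 1.47 ± 0.18, adjusted p = 9.61e-08 for SDR4. GLN1;5, a glutamine synthetase outside the role groups, had 0, 2.65 and 12.99 in ada2b, 42.6, 85.2 and 36.8 in gcn5 and 60.6, 41.4 and 14.1 in Col-0. AACT1 had 16.4, 35.7 and 5.76 in ada2b, 128, 121 and 186 in gcn5 and 98.9, 152 and 219.5 in Col-0.

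Cell wall enzymes gave 8 members, with a median d of -2.05 in ada2b and -0.04 in gcn5, where it was 0.15 without gcn5 replicate 2, 0.03 without gcn5 replicate 3 and 0.10 without Col-0 replicate 3. The pectate lyase gene AT1G67750 was the most abundant, with 233, 279.9 and 339 in ada2b, 1116, 1221 and 1181 in gcn5 and 1123, 958 and 1129 in Col-0. QRT3, a polygalacturonase known from pollen separation, had 25.2, 35.3 and 21.2 in ada2b, 73.7, 81.2 and 51.8 in gcn5, 169, 137 and 175 in eaf6 and 66.5, 80.8 and 87.3 in Col-0 (log2 fold change 1.03 ± 0.34, adjusted p = 0.0121). AT1G11070, a hydroxyproline-rich glycoprotein, had 0, 8.88 and 1.7 in ada2b, 202, 229 and 233 in gcn5 and 68.2, 25.6 and 31.8 in Col-0, the second highest d in gcn5 of all members. Of the 8 members, QRT3 alone rose in eaf6 against Col-0 and 0 fell, where 25.2% of all genes rose and 25.9% fell. XTH29 was the only member among 27 xyloglucan endotransglucosylase genes tested.

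**Figure D3:**
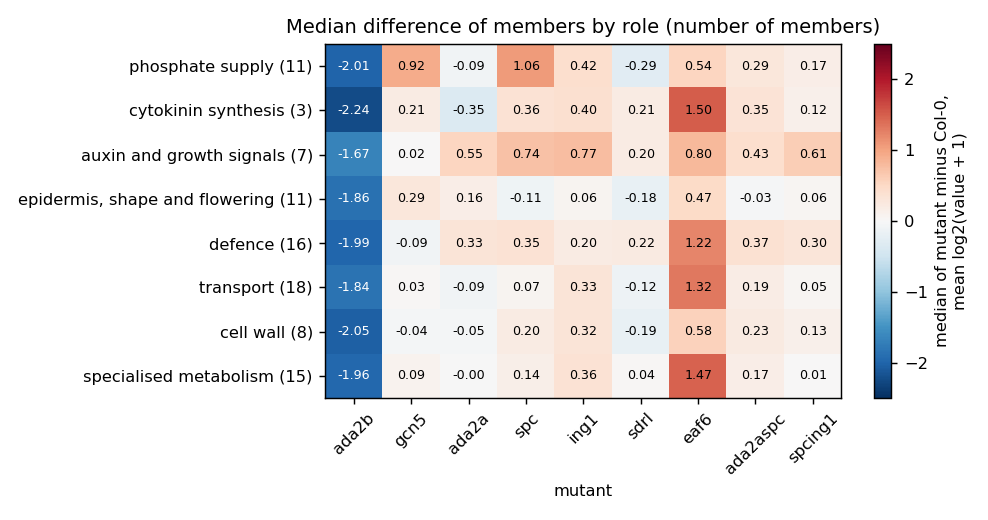
Median difference from Col-0, as mean log2(value + 1), of the members in each of 8 role groups (rows, with the number of members) in each of 9 mutants (columns). The ada2b column is low by the rule, phosphate supply stands highest in gcn5 at 0.92, and transport and specialised metabolism reach 1.32 and 1.47 in eaf6.

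Whether the members moved as a group in genotypes that the rule did not use was asked in eaf6 and the double mutants. The tests are rows of a fit of all 21868 genes by limma, with p-values adjusted by Benjamini-Hochberg over all of them. In eaf6 against Col-0, 74 of 222 members rose (33.3%, against 25.2% of all genes) and 6 fell (2.7%, against 25.9% of all genes). Of the genes lower in both ada2b and gcn5, 28.7% rose and 18.7% fell. The median log2 fold change was 0.77 over the members, 0.23 over the genes lower in both ada2b and gcn5, and 0.01 over all genes. The 49 genes lower in ada2b, not in gcn5, and left out for standing above Col-0 in all 4 mutants of the last condition had a higher median of 1.48, and 75.5% of them rose, a larger share than of the members. The counts were also taken among the 83 members with a mean of at least 50 over the 30 libraries. There 41 rose (49.4%, against 36% of the genes lower in both and 26.3% of all genes at that level). That mean includes the eaf6 libraries, so genes high in eaf6 reach it more easily. Under every alternative 48 of the 74 and 2 of the 6 kept the call. The Col-0 libraries that chose the members are also in this contrast.

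**Figure D4:**
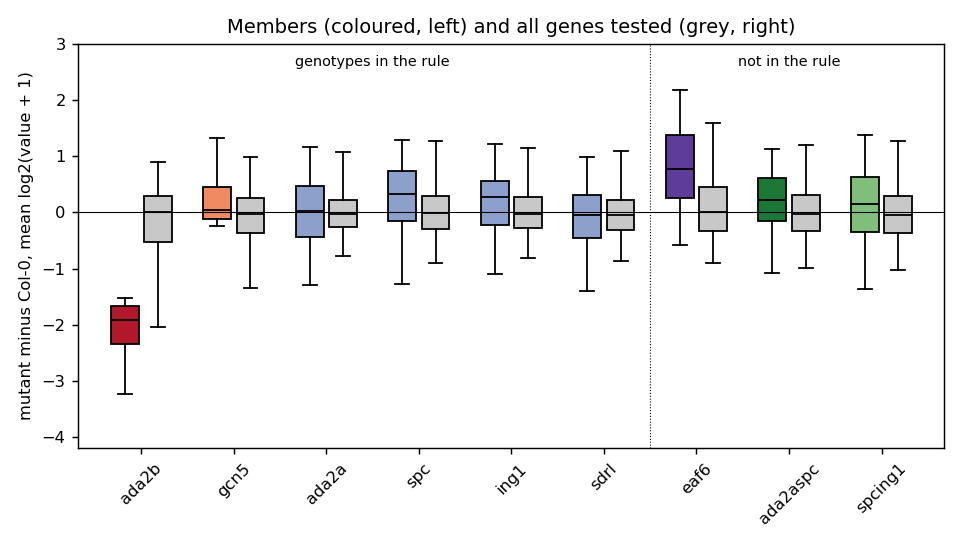
Difference of each mutant from Col-0, as mean log2(value + 1), over the 222 members (coloured boxes, left) and over all 21868 genes tested (grey boxes, right), with boxes at the quartiles, lines at the medians and whiskers at the 5th and 95th percentiles. The members' median is 0.77 in eaf6, 0.22 in ada2aspc and 0.16 in spcing1, to the right of the dotted line that parts the genotypes in the rule from those outside it.

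The same question was asked without Col-0. In eaf6 against ada2aspc, neither of which was used in the rule's differences, 57 members rose (25.7%, against 16.2% of all genes) and 6 fell (2.7%, against 19.6%). Among members with a mean of at least 50, 34 rose (41%, against 17.1%). In eaf6 against spcing1, 67 rose (30.2%, against 20.4%) and 10 fell (4.5%, against 22.1%), and at a mean of at least 50, 38 rose (45.8%, against 21.2%). PGL5, a 6-phosphogluconolactonase by its RefSeq product, was among the 10 that fell, with 331, 263 and 250.4 in eaf6 and 417, 637 and 436 in spcing1 (log2 fold change -0.801 ± 0.25, adjusted p = 0.0118), a call lost without spcing1 replicate 2 (adjusted p = 0.0892). The median log2 fold changes were 0.65 and 0.73 over the members, and 0.02 in both over all genes. Over the genes lower in both ada2b and gcn5 they were 0.228 and 0.235, and 19.8% and 22.3% of those rose. Over the 49 genes left out by the last condition they were 0.05 and 0.03, and 8.16% and 10.2% rose. That condition used ada2a, spc and ing1, which are also mutated in the double mutants, so these contrasts are not free of the rule. These contrasts share the eaf6 libraries with each other and with the contrast to Col-0.

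MIPS3, an inositol phosphate synthase (chromosome 5, 3187277 to 3190321, minus strand), had 119, 219 and 104 in ada2b, 480.3, 496 and 391 in gcn5, 1527, 1816 and 1879 in eaf6, 780.4, 920.3 and 918 in ada2aspc, 860.1, 679 and 663 in spcing1 and 474, 431 and 475 in Col-0. The eaf6 libraries lay above all others (log2 fold change 1.91 ± 0.18, adjusted p = 5.81e-10; log2 fold change 0.99 ± 0.18, adjusted p = 9.95e-05 against ada2aspc). HCHIB had 3229, 3333 and 3402 in eaf6, 2115, 2065 and 2329 in ada2aspc and 1971, 1373 and 2046 in spcing1 (log2 fold change 1.203 ± 0.13, adjusted p = 4.32e-09 in eaf6 against Col-0). DAR3, a relative of the organ-size gene DA1, had 11.2, 6.96 and 11.7 in ada2b, 167, 306 and 232 in eaf6, 37.01, 44.4 and 53.05 in ada2aspc, 50.5, 44.7 and 34.7 in spcing1 and 25.2, 27.5 and 48.2 in Col-0. It rose in eaf6 against each of the other three (log2 fold change 2.79 ± 0.39, adjusted p = 8.51e-07 against Col-0). AT1G10980 had the largest log2 fold change of any member that rose in eaf6. It had 65.5, 53.6 and 57.3 in eaf6 and 6.63, 0.0911 and 6.28 in Col-0, and was listed at 0 in ada2b (log2 fold change 3.92 ± 0.88, adjusted p = 0.00044). SDR4 and CYP71B37 rose in eaf6 against ada2aspc as well (1.24 ± 0.18, adjusted p = 5.98e-06 and 1.23 ± 0.21, adjusted p = 5.26e-05 by limma).

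**Figure D5:**
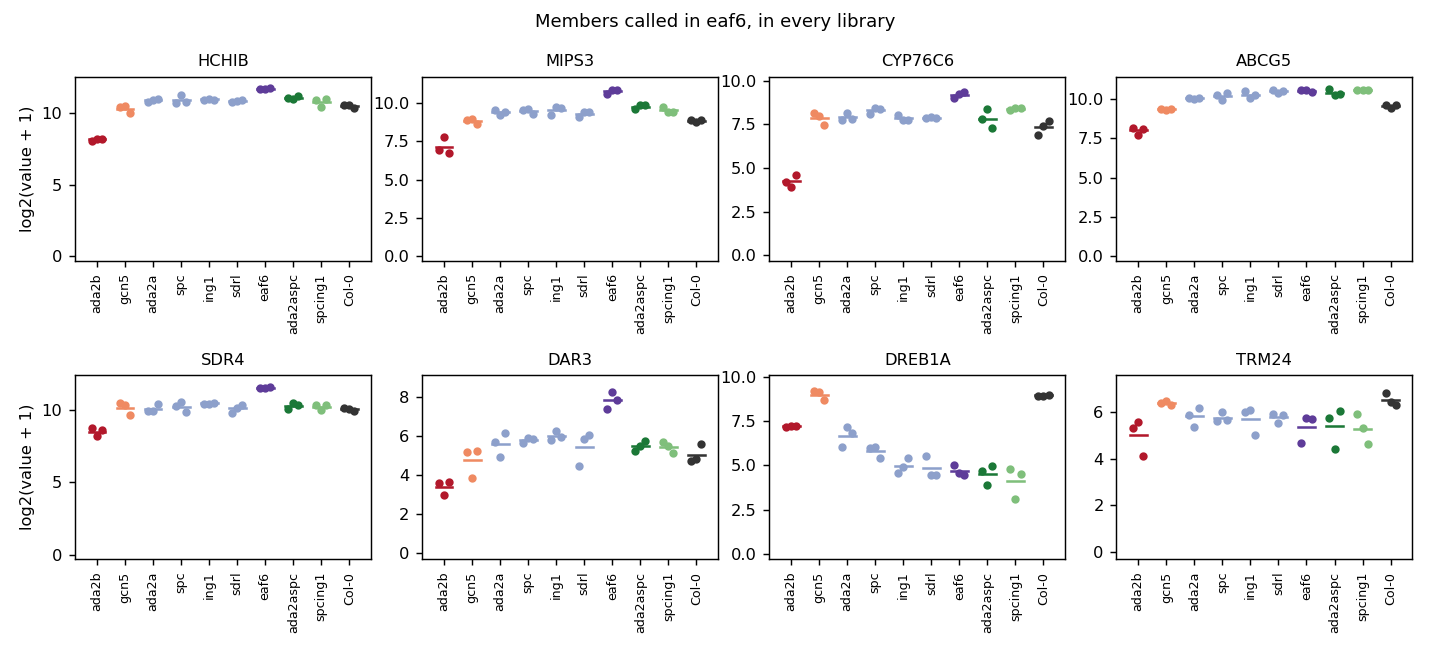
Values of 8 members in each of 30 libraries, as log2(value + 1) on the vertical axis, by genotype on the horizontal axis, with a point per library and a bar at the mean of 3. In HCHIB, MIPS3, CYP76C6, SDR4 and DAR3 the eaf6 points lie highest and the ada2b points lowest, and DREB1A is highest in gcn5 and Col-0.

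In the double mutants fewer members than genes in general passed, but the share that rose depended on level. In ada2aspc against Col-0, 30 members rose (13.5%, against 21.7%) and 6 fell (2.7%, against 22.8%). In spcing1 against Col-0, 26 rose (11.7%, against 20.9%) and 10 fell (4.5%, against 23.9%). The last condition of the rule left out 49 genes that stood above Col-0 in ada2a, spc, ing1 and sdrl. Of these, 73.5% rose in ada2aspc and 77.6% in spcing1, and 0 fell in either. The rule itself thus lowered the share of members that rose in the double mutants. Among the 83 members with a mean of at least 50, 25 rose in ada2aspc (30.1%, against 24.3% of all genes at that level). There 21 rose in spcing1 (25.3%), near the 23.3% of all genes. Of the genes lower in both ada2b and gcn5 at that level, 23.6% rose in ada2aspc and 23.3% in spcing1. That mean includes the libraries of both double mutants. ABCG5 rose in both, with 1610, 1228 and 1279 in ada2aspc, 1543, 1521 and 1523 in spcing1 and 795, 693 and 796 in Col-0 (log2 fold change 0.84 ± 0.12, adjusted p = 9.66e-07 in ada2aspc and log2 fold change 1.01 ± 0.12, adjusted p = 3.99e-08 in spcing1). ALPHA DOX2, a fatty acid dioxygenase, had 534, 594 and 537 in ada2b, 2244, 2293 and 2229 in ada2aspc, 2393, 2817 and 2617 in spcing1 and 1759, 1605 and 1616 in Col-0, and it passed as higher in both double mutants (log2 fold change 0.44 ± 0.07, adjusted p = 7.76e-06 in ada2aspc and log2 fold change 0.65 ± 0.07, adjusted p = 1.08e-08 in spcing1). PYD4, of pyrimidine breakdown, had 541, 562 and 487 in ada2b, 3223, 3067 and 2936 in ada2aspc and 2560, 1270 and 1606 in Col-0 (log2 fold change 0.82 ± 0.16, adjusted p = 0.000133). The carboxypeptidase-like scpl1 fell in both, with 141, 207 and 193 in ada2aspc, 214, 229 and 199.7 in spcing1 and 346, 341 and 324 in Col-0 (log2 fold change -0.92 ± 0.21, adjusted p = 0.000684 in ada2aspc). Between spcing1 and ada2aspc 2 members were higher (0.901%, against 0.681% of all genes), QWRF6 and AT1G76955, and 0 were lower (0.215% of all genes) by limma. An unadjusted p below 0.05 was found for 20 members (9.01%, against 12.7% of all genes). QWRF6 was listed at 0 in ada2aspc and in ada2b, and had 11.5, 9.23 and 12.2 in spcing1. Both calls were lost when any 1 library of either double mutant was left out, with adjusted p up to 0.159 for QWRF6 and 0.153 for AT1G76955.

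A few members went the other way, low in ada2b and also in eaf6 or the double mutants. DREB1A, also called CBF3, a regulator of cold tolerance (chromosome 4, 13018010 to 13019400, minus strand), had 143, 149 and 151 in ada2b, 581, 565 and 412 in gcn5, 64.4, 145 and 111 in ada2a, 62, 64.6 and 42 in spc, 22.6, 29.2 and 42.6 in ing1, 45, 21.4 and 21.3 in sdrl and 490.0, 494 and 513 in Col-0. Only gcn5 overlapped Col-0. It fell in eaf6 to 31.7, 23.1 and 21.1 (log2 fold change -4.27 ± 0.36, adjusted p = 7.51e-11), in ada2aspc to 24.4, 13.8 and 30.2 (log2 fold change -4.46 ± 0.36, adjusted p = 3.15e-11) and in spcing1 to 27.3, 7.7 and 21.4 (log2 fold change -4.82 ± 0.36, adjusted p = 4.83e-12). TRM24, of a family that organises microtubules, had 38.4, 46.7 and 16.4 in ada2b, 82.96, 88.2 and 78.7 in gcn5, 24.7, 52.1 and 50.4 in eaf6 and 113, 84.3 and 79.2 in Col-0. It fell in eaf6 (log2 fold change -1.16 ± 0.41, adjusted p = 0.018), but not without the first Col-0 library (adjusted p = 0.0719) or the first eaf6 library (adjusted p = 0.127).

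Across the 4 mutants of the last condition the members were spread around Col-0. The median d over members was 0.03 in ada2a, 0.32 in spc, 0.27 in ing1 and -0.05 in sdrl. It was -0.015 in ada2a without ada2a replicate 3 and 0.11 in sdrl without sdrl replicate 1. Counts of members at 0.5 or above were 50 in ada2a, 78 in spc, 62 in ing1 and 31 in sdrl. Counts at -0.5 or below were 50 in ada2a, 29 in spc, 37 in ing1 and 55 in sdrl. The same counts were not taken over all genes, so they do not show a trait of the members. By the last condition no member stood at 0.5 or above in all 4. Over all genes the median d was -0.036 in ada2a, -0.015 in spc, -0.022 in ing1 and -0.052 in sdrl. PAP5 was the highest member in spc, with 232, 328 and 318, and AT1G10980 in ing1, with 15.2, 42.2 and 16.8. The SKU5-like gene sks13 was the highest in ada2a (10.4, 15.9 and 8.29) and in sdrl (19.2, 6.12 and 8.31), against 3.77, 5.36 and 0.0379 in Col-0. The lowest were PDF1.2c in ada2a, AT5G22530 in spc, where it was listed at 0, and DREB1A in ing1 and sdrl. AT5G62240, a microtubule-associated protein gene by its product, was the highest in gcn5, with 17.6, 9.8 and 37.4 there, 0 in all ada2b libraries and 3.77, 5.36 and 0.0379 in Col-0.

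Properties that the rule did not use are set beside those of all genes and, for several, of the 49 genes left out by the last condition. Their median exon length was 1324 bases, against 1080 over the 49 and 1728 over all genes tested, and 91% were protein-coding, against 89.8% of the 49 and 96.9% of all genes. A further 14 were non-coding genes other than microRNAs, and 38 (17.1%) had a product given as hypothetical, unknown or uncharacterised, against 18.4% of the 49 and 7.26% of all genes. Among short motifs searched on both strands of the 300-base window, TGGGCC, a motif common before genes of protein synthesis, was in 6.31% of members and 17.7% of all genes, but also in only 6.51% of the genes lower in both mutants. TATAAA was in 60.4% of members, 57.2% of the genes lower in both and 51.6% of all genes. The auxin motif TGTCTC was in 18.5% of members, 20.4% of the 49 and 13.8% of all genes. The W-box core TTGACC was in 12.2% and 14.3%. These are counts with no test.

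By position, 63 members lie on chromosome 1, 24 on chromosome 2, 36 on chromosome 3, 37 on chromosome 4 and 62 on chromosome 5. These are 28.4, 10.8, 16.2, 16.7 and 27.9% of the members, against 26.5, 15.2, 19.7, 15.3 and 23.3% of all genes. Within 500000 bases of ADA2B there were 218 tested genes and 1 member, AT4G16460, which lies 18753 bases away. Besides ABCA5 and ABCA6, the neighbouring pairs were AT1G51020 with AT1G51030 and AT1G76955 with AT1G76960, none of which has a symbol. AT1G76960 had 111, 98.3 and 47.3 in ada2b, 963, 895 and 1122 in gcn5 and 441, 656 and 959 in Col-0, and AT1G76955 had 14.2, 17.1 and 14.2 in ada2b, 161, 181 and 155 in gcn5 and 149, 188 and 163 in Col-0. An overlapping gene on the same strand was annotated for 8 members and on the opposite strand for 32, and 4 members have a copy at least 95% identical over at least 150 bases, so single values of these are uncertain.

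The thresholds cut through a continuous range. Just inside the ada2b threshold were AT3G24230 at -1.502, QRT3 at -1.51 and AT1G51030 at -1.51, and just outside were AT4G00670 at -1.498, AT5G23170 at -1.49 and PES2 at -1.48. At the gcn5 threshold IAA32 (-0.29), AT5G63820 (-0.29) and AT2G42980 (-0.28) were inside, and NTL (-0.30), AT5G51930 (-0.31) and AT3G05937 (-0.32) outside. For the last condition, the lowest d over the 4 mutants was 0.50 in CYP76C6, 0.49 in ABCG5 and 0.46 in AT5G03495, inside, and 0.52 in AT5G52390 and MIR160c and 0.53 in AT3G22235, outside. Membership was sensitive to single libraries. With any 1 of the 21 libraries of the rule left out, 216 to 279 genes met it, and 155 to 222 of these were among the 222. With the first Col-0 library left out, 155 of the 222 remained.

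Of 20 pathway lists, 4 held members, which are the phosphate starvation, Aux/IAA, xyloglucan endotransglucosylase and leaf growth lists. The other 16 held none. Those 16 cover GCN5 complex subunits, SAUR genes, auxin synthesis and transport, cytokinin response and breakdown, gibberellin metabolism, brassinosteroid synthesis, expansins, secondary wall and xylem, glucosinolates, flavonoids, iron uptake, nitrate, jasmonate, salicylic acid and immunity, photosynthesis, and wax and cutin. Of the 30 light-harvesting and photosystem genes tested, 17 had d of -1.5 or below in ada2b, and 29 were below -0.3 in gcn5. Of 10 marker lists, the stomatal list held BASL and the trichome list held ETC1, and the other 8 held none.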

How the data were processed

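RNA of 30 seedling libraries was measured by paired-end sequencing. The authors named edgeR, HISAT2, bcl2fastq and build TAIR10, per the submitters' processing notes, with no versions. They deposited a normalised signal per gene that is not in whole numbers, so depth in reads is unknown, no count test was run, and a value below 0.01 is taken as listed at 0. Column totals were 30914000 to 41548748.

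The members, role groups and lists were chosen with earlier results of these data known. By rule, the genes named were the 10 members with a symbol lowest in ada2b, the 5 highest in Col-0 per kilobase, up to 4 with a symbol and the smallest adjusted p in each direction and contrast, list members, neighbouring members, those at the thresholds, and the extremes in gcn5, ada2a, spc, ing1 and sdrl. Others, named for a role, were chosen after their values were seen. Values were fitted as log2(value + 1) with limma 3.58.1 in R 4.3.3, with 1 term per genotype and all 30 libraries, over 21868 genes, and p-values were adjusted by Benjamini-Hochberg at 0.05. No contrast used in the rule was tested. The procedure was tested on simulated data for eaf6 against Col-0. It recovered 91% of log2 changes of 1 and 98% of changes of 2, and called 11 unchanged genes. The changes were placed only in genes above a level that most members do not reach, so the check does not cover most members. Sequences came from RefSeq TAIR10.1, and similar copies were found with BLAST+ 2.17.0. Alternatives were other scalings, no filter, a pseudocount of 16, a fit of only the groups compared, a replicate block, a 2-fold minimum and leaving out each library.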

Additional observations from a re-analysis of the deposited data

How the results depend on the processing

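Membership depended most on the pseudocount: with 16 in place of 1, 52 genes met the rule, 48 of them among the 222. Mean column totals were lowest in ada2b (31460173) and gcn5 (32889855), against 37742537 in Col-0. With values scaled by column totals, 242 genes met the rule, 161 of them among the 222. With each library left out in turn the number was 216 to 279. In eaf6 against Col-0, 59 to 68 members were higher and 3 to 6 lower with a library left out, 3 without the third Col-0 library. With a library left out, ada2aspc against Col-0 gave 20 to 28 higher and 4 to 8 lower, and spcing1 against Col-0 gave 18 to 26 higher and 6 to 13 lower. Likewise eaf6 against ada2aspc gave 38 to 49 higher and 3 to 5 lower, and eaf6 against spcing1 gave 54 to 70 higher and 6 to 8 lower. For spcing1 against ada2aspc it was 0 to 1 higher and 0 to 1 lower.

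With a 2-fold minimum, 11 members were higher in ada2aspc and 8 in spcing1 against Col-0, 1 was lower in eaf6 against ada2aspc, 4 were lower in eaf6 against spcing1, and 1 was higher in spcing1 against ada2aspc. Scaling by column totals left 17 higher in spcing1 against Col-0, 2 lower in eaf6 against ada2aspc, 5 lower in eaf6 against spcing1 and 0 higher in spcing1 against ada2aspc. That scaling moved the median of all genes to -0.10 in ada2aspc and -0.15 in spcing1 against Col-0, and to 0.14 and 0.17 in eaf6 against ada2aspc and spcing1. A fit of only the groups compared gave 11 lower in eaf6 against ada2aspc and 0 higher in spcing1 against ada2aspc. That last count was 1 with no filter, with a pseudocount of 16 and with the replicate block. The cause of these changes was not tested.

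Over all genes, libraries of eaf6, ada2aspc, spcing1 and Col-0 with the same replicate number did not deviate together (correlations of -0.03 to 0.046). No pairing by number was detected there, but one that moves few genes could be missed, and the other genotypes were not checked. With the replicate block, 73 members were higher and 7 lower in eaf6 against Col-0. No tested result reversed under an alternative. Only in spcing1 against ada2aspc did the counts of calls reverse. They were 2 higher and 0 lower in the main fit, and 0 higher and 1 lower without spcing1 replicate 1. In spcing1 against Col-0 a 2-fold minimum left 8 higher and 8 lower. The medians of the role groups, recomputed after the data were seen with 1 of the mutant's own libraries left out, changed sign in 36 of 216 cases, 6 of them in gcn5, 8 in ada2a, 9 in sdrl and 0 in ada2b and eaf6. Depth in reads is unknown, so no counting error is given.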
